A study of Gallus gallus with 24 samples.

Results

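The 8 genes described here encode peptide transmitters and hormones of the retina other than vasoactive intestinal peptide, urotensin 2B and proglucagon: PENK, PNOC, NTS, SST1, TAC1, CCK, NPY and CNP3. They were chosen by the gene symbol that the array's annotation gives to each probe set, and 13 of 38439 probe sets carried 1 of these symbols, for 8 of 13009 named genes. For each gene the probe set with the highest mean signal over the 24 arrays stands for it, and the others are given beside it. Of the 13 probe sets, 10 were bright enough to enter the test across 26907 probe sets, with at least 1 for each gene.

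The study followed form-deprivation myopia, in which an eye deprived of a sharp image grows too long, in white Leghorn chicks at about 1 week of age. Each chick had a translucent white goggle over 1 eye, on alternate sides, glued on under ether when the lights came on, and its other eye went uncovered. Retina and pigment epithelium were dissected together and hybridised 1 eye per array. The 4 groups of 6 arrays are open and goggled eyes after 6 h and open and goggled eyes after 3 d, from 6 chicks per time. The labels do not say which arrays are both eyes of a chick. Equal replicate numbers at a time are taken as such, and each count of chicks below rests on this assumed pairing. The open eyes are fellow eyes of goggled chicks, so no group comes from untreated birds. The 3 d chicks are other birds than the 6 h chicks, were older, and were further from the anaesthesia, and these differences cannot be told apart from the time itself. With goggles put on when the lights came on, the hour of the day may also differ between 6 h and 3 d, which was not tested.

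Retinal peptides are made mostly by amacrine cells, the interneurons that shape the signal from bipolar to ganglion cells. They are cut from larger precursors inside secretory vesicles, released beside a classical transmitter, act mostly on G-protein-coupled receptors (natriuretic peptides on receptor guanylyl cyclases) and are broken down by peptidases outside the cell. In the chick retina a well known amacrine cell type holds enkephalin, neurotensin and somatostatin together, and the peptides of PENK, NTS and SST1 have therefore been studied side by side.

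Signals are linear intensities with the same 2% trimmed mean on each array, while the array medians differed by group. At 6 h they lay between 35.6 and 43.9 in open and between 35.0 and 44.1 in goggled eyes. At 3 d they lay between 33.3 and 40.1 in open and were lowest in goggled eyes, between 30.1 and 36.4. The array also carries 57 reporter probe sets for sequences foreign to the chicken. They had a median of 3.25 and a 95th percentile of 22.8, and a signal below the latter is called background here. All 9 amacrine markers, all 8 pigment epithelium markers, all 4 Müller glia markers and all 5 ganglion cell markers on the array had means above it. The choroid and sclera markers passed a limit of 7 on a few arrays, which was set after seeing the data. Their mean on the log2 scale was 8.26 in 3 d goggled replicate 3, 7.26 in 3 d open replicate 2 and 7.17 in 6 h open replicate 5, against group medians of 5.11 to 5.69. Below that limit, 3 d open replicate 1 (6.5) and 6 h goggled replicates 3 (6.47), 6 (6.37) and 5 (6.31) also lay above these medians. The blood markers, for which no limit was set, ran from 6.71 to 9.71 in 3 d goggled eyes. The striated muscle markers passed a limit of 6 in 6 h goggled replicate 6 (7.77), 3 d goggled replicate 3 (6.52) and 6 h goggled replicate 5 (6.06), against group medians of 4.59 to 4.83. Results that changed a call without the 5 arrays past either limit are given both ways, and the part of other tissue in any other result was not tested.

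None of the 8 genes passed the test between goggled and open eyes at either time. NTS was higher in the goggled eye of all 12 chicks, as were 0.108% of all probe sets tested. TAC1 was lower in 11 of 12, and 0.959% of all were lower in 11 or 12. SST1 was lower in 6 of 6 chicks at 3 d, as were 3.24% of all. Between 6 h and 3 d PENK was called lower in open eyes and SST1 in goggled eyes, beside 4.71% and 8.57% of all probe sets called lower. Both calls were lost with each array centred on its median and without the 5 arrays apart in tissue markers. PENK also differed by -0.21 in goggled eyes, which was not called, and neither gene's time difference was called different between the kinds of eye. PNOC and CNP3 lay close to the background. Less RNA per cell and fewer cells of a type cannot be told apart in this tissue.

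**Figure D1:**
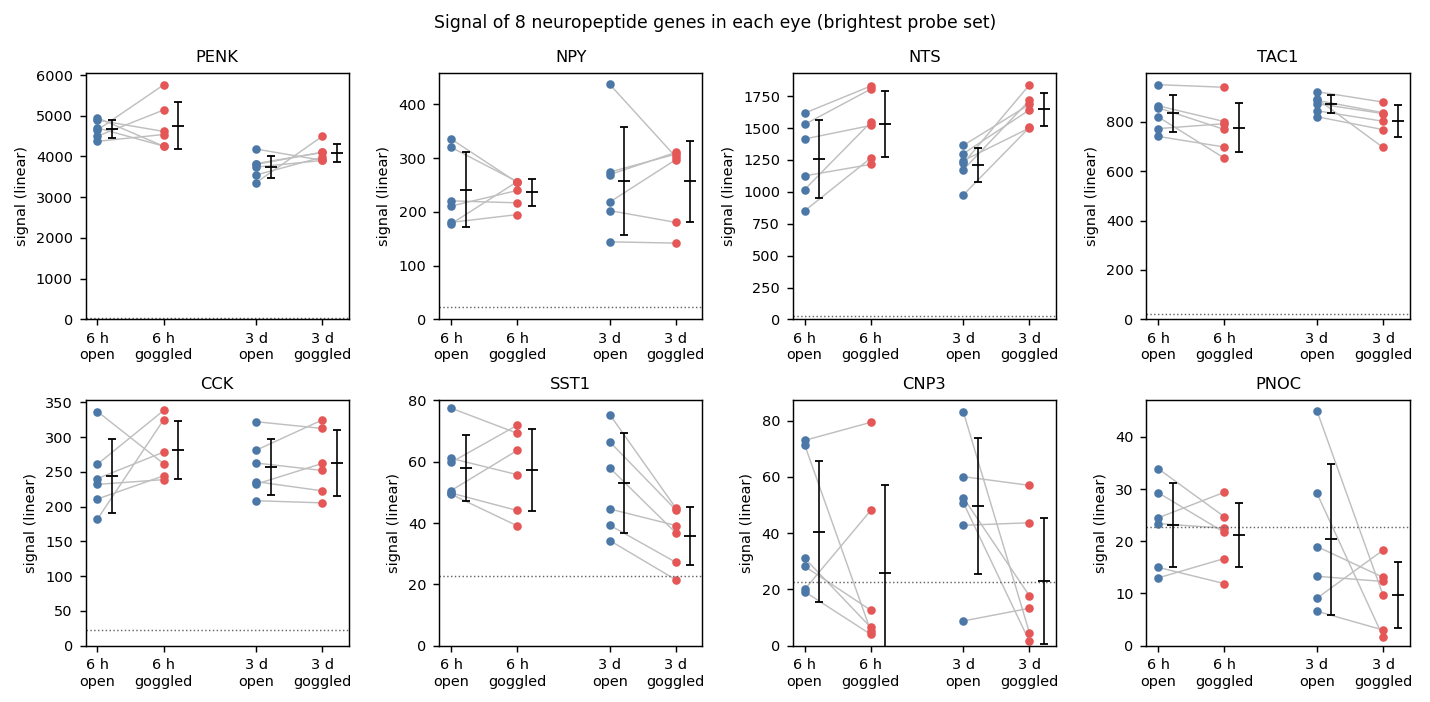
Signal (linear intensity, y axis from 0) of the brightest probe set of the 8 genes in open (blue) and goggled (red) eyes at 6 h and 3 d, with 1 point per eye, grey lines joining the eyes of a chick, bars at the mean ± SD (n = 6) and a dotted line at the reporter probe sets' 95th percentile of 22.8. All 12 grey lines of NTS run upwards from open to goggled, the 3 d open eyes of PENK lie below the 6 h eyes, and CNP3 and PNOC scatter around the dotted line.

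Each goggle comparison was read from a limma fit with 4 group means on log2(signal + 16), with p-values adjusted by Benjamini-Hochberg over all 26907 probe sets. At 6 h limma called 0 of 8 genes and 0 of all probe sets (0%), with 1 of the 8 and 635 of all (2.36%) at an unadjusted p under 0.05. The fit with the chick as a block called 0 of all as well, with 1 of the 8 and 1233 of all (4.58%) unadjusted. At 3 d it called 0 of 8 genes against 2 of all probe sets (0.00743%), and 3 of the 8 and 1448 of all (5.38%) had an unadjusted p under 0.05. The block fit called 0 of 8 and 2 of all there as well (0.00743%), with 4 of the 8 and 8.9% of all unadjusted. Over both times together it called 0 of 8 against 2 of all (0.00743%), with 2 of the 8 and 1624 of all (6.04%) unadjusted. The block fit over both times called 0 of 8 against 3 of all (0.0111%), with 4 of the 8 and 9.66% of all unadjusted. The median difference of the 8 genes was -0.01 at 6 h and -0.05 at 3 d as well as over both times, beside -0.01, -0.03 and -0.02 for all probe sets tested, and 4 genes were higher and 4 lower at each time. The goggle effect itself was not called different between 3 d and 6 h for any of the 8 genes or any probe set in limma (0%), with 0 of the 8 and 601 of all (2.23%) unadjusted. The block fit called 0 as well, with 1 of the 8 (SST1, adjusted p 1 in limma) and 1136 of all (4.22%) unadjusted.

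NTS encodes the precursor of neurotensin and neuromedin N. Its signal in open eyes at 6 h ran from 851.3 over a median of 1270.2 to 1617.8, and in goggled eyes from 1215.4 over 1533 to 1829.8. At 3 d the open eyes ran from 976.4 over 1234 to 1364.1, and the goggled eyes from 1500.9 over 1665 to 1839.5. The groups overlapped at 6 h, and at 3 d the lowest goggled eye stood above the highest open eye, as did 16 of all tested probe sets (0.0595%). The group means were 1259.5 ± 306 and 1530.4 ± 259 at 6 h and 1214 ± 133 and 1649 ± 130.3 at 3 d (SD, n = 6).

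The eye of the chick that wore the goggle had the higher NTS signal in 6 of 6 chicks at 6 h, by 0.10 to 0.59 on the log2 scale, and in 6 of 6 at 3 d, by 0.27 to 0.62. The count at 3 d follows from the groups not overlapping, whatever the pairing, and adds nothing to that. Among all tested probe sets, 404 (1.5%) were higher in 6 of 6 chicks at 6 h and 473 (1.76%) at 3 d, and 29 (0.108%) were so in 12 of 12. The fitted difference was 0.30 (SE 0.14, 95% interval 0.02 to 0.58) at 6 h, with an adjusted p of 1 in limma. It was 0.44 (SE 0.14, 0.16 to 0.72), a 1.36-fold difference, at 3 d, with an adjusted p of 0.7. Over both times it was 0.37 (SE 0.10, 0.17 to 0.57), and its unadjusted p was the 39th smallest of all tested, which gave an adjusted p of 0.552 in limma. With the chick as a block the standard error over both times was 0.06 and limma's adjusted p 0.099. Over all alternatives this adjusted p lay between 0.0918 and 1, so the difference did not pass in any of them. Its direction held in them at 6 h (0.19 to 0.38), at 3 d (0.38 to 0.53) and over both times (0.32 to 0.42). Without the 5 arrays that stood apart in choroid or muscle markers the difference was 0.34 at 6 h and 0.46 at 3 d. The change of the goggle effect from 6 h to 3 d was 0.14 (SE 0.19, -0.25 to 0.54), so a smaller, an equal and a larger effect at 3 d all lie inside the interval.

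**Figure D2:**
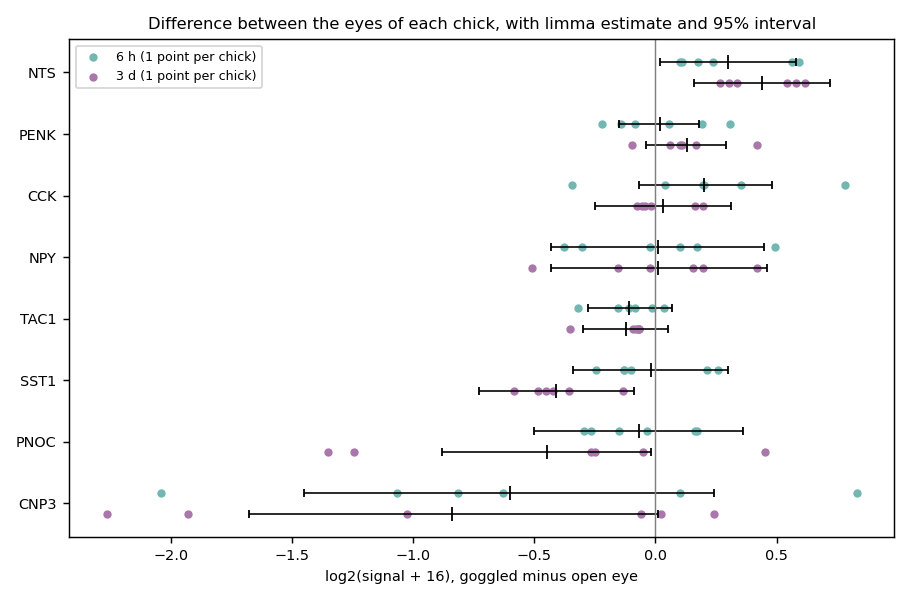
Difference between goggled and open eye on the log2(signal + 16) scale (x axis) for the brightest probe set of each gene, with 1 point per chick at 6 h (teal) and 3 d (purple) and the limma estimate with its 95% interval in black. All 12 points of NTS lie right of 0, 11 of 12 points of TAC1 lie left of it, and the points of CNP3 spread from -2.27 to 0.83.

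SST1 encodes the main somatostatin precursor, whose peptide inhibits transmitter and hormone release. Its brightest probe set ran from 49.4 over a median of 55.2 to 77.5 in open eyes and from 39.1 over 59.8 to 71.9 in goggled eyes at 6 h. At 3 d the open eyes ran from 34.3 over 51.3 to 75.4, and the goggled eyes from 21.5 over 38.0 to 44.9. The goggled eyes at 3 d were low as a group: 5 of 6 were above the background, and they overlapped with the open eyes at 3 d.

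At 6 h the goggled eye was lower in 4 of 6 chicks and the fitted SST1 difference was -0.02 (SE 0.16, -0.34 to 0.30). At 3 d it was lower in 6 of 6 chicks, by 0.13 to 0.59 in size, as were 871 of all tested probe sets (3.24%). The fitted difference at 3 d was -0.41 (SE 0.16, -0.73 to -0.09), with an adjusted p of 0.824 in limma and of 0.246 with the chick as a block, where the SE was 0.08. Over all alternatives this difference lay between -0.55 and -0.23. The second probe set of SST1, with a mean of 23.39 close to the background, differed by -0.39 (SE 0.21, -0.82 to 0.04) at 3 d, although only 3 of 6 chicks were lower there. The dimmest, with a mean of 3.696, lay in the background on all 24 arrays and was not tested. The goggle effect differed between the times by -0.38 (SE 0.22, -0.84 to 0.07) with an adjusted p of 1 in limma, so a change of that effect was not called.

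PENK encodes proenkephalin, the precursor of the opioid peptides Met- and Leu-enkephalin. Open eyes at 6 h ran from 4372.5 over a median of 4676 to 4949.7. Goggled eyes ran from 4251.7 over 4578 to 5757.9. At 3 d open eyes ran from 3358.7 over 3774 to 4182.3, and goggled eyes from 3903.3 over 4042 to 4495.1. The eyes of the chicks overlapped between open and goggled at both times, and 3 of 6 goggled eyes were higher at 6 h and 5 of 6 at 3 d. The fitted goggle difference was 0.02 (SE 0.08, -0.15 to 0.18) at 6 h and 0.13 (SE 0.08, -0.04 to 0.29) at 3 d, with adjusted p of 1 and 0.922 in limma. PENK varied little between eyes of a group, with a coefficient of variation of 4.7% to 12.3%, and the upper end of its interval at 3 d corresponds to a 1.22-fold difference.

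PNOC encodes prepronociceptin, the precursor of nociceptin, which acts on an opioid-like receptor. Its brightest probe set had a mean of 18.6, below the reporter probe sets' 95th percentile, and only 4 of 6 open eyes at 6 h, 2 of 6 goggled eyes at 6 h, 2 of 6 open eyes at 3 d and 0 of 6 goggled eyes at 3 d were above the background. The signals ran from 13 to 33.9 and 11.9 to 29.4 at 6 h and from 6.6 to 45.0 and 1.7 to 18.3 at 3 d, open before goggled, with medians of 23.9, 22.1, 16.1 and 11. The goggled eye was lower in 4 of 6 chicks at 6 h and in 5 of 6 at 3 d. The fitted difference was -0.07 (SE 0.21) at 6 h and -0.45 (SE 0.21, -0.88 to -0.02) at 3 d, with an adjusted p of 0.922 in limma at 3 d. Leaving out an array or a chick moved the 3 d value between -0.63 and -0.27, and over all alternatives it lay between -1.03 and -0.18. The 2 other probe sets, with means of 13.2 and 8.887, were too dim to be tested, and their goggled eyes were higher in 4 and in 1 of 6 chicks at 3 d, so the 3 probe sets did not share a direction.

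TAC1 encodes the tachykinin precursor of substance P and neurokinin A. At 6 h open eyes ran from 740.2 over a median of 837 to 949.5. Goggled eyes ran from 652.2 over 780 to 939.1. At 3 d open eyes ran from 819.9 over 879.5 to 921.3, and goggled eyes from 695.5 over 817 to 879.1. The groups overlapped at both times, while the goggled eye was lower in 5 of 6 chicks at 6 h and in 6 of 6 at 3 d, where 5 of the differences were below 0.10 in size and 1 was -0.35. Among all probe sets, 258 (0.959%) were lower in 11 or 12 of 12 chicks. The fitted TAC1 difference was -0.11 (SE 0.09, -0.28 to 0.07) at 6 h, -0.12 (SE 0.09, -0.30 to 0.05) at 3 d and -0.12 (SE 0.06, -0.24 to 0.01) over both times. Its adjusted p over both times was 0.845 in limma and 0.482 with the chick as a block.

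CCK encodes cholecystokinin, a peptide of the gut and of many neurons. Its brightest probe set ran from 182.0 over a median of 236 to 336.6 in open eyes and from 238.7 over 270.0 to 338.1 in goggled eyes at 6 h. At 3 d the open eyes ran from 208.4 over 249 to 322.0, and the goggled eyes from 205.3 over 257 to 324.5. All 4 groups overlapped, and the goggled eye was higher in 5 of 6 chicks at 6 h and in 2 of 6 at 3 d. The fitted difference was 0.20 (SE 0.13, -0.07 to 0.48) at 6 h and 0.03 (SE 0.13, -0.25 to 0.31) at 3 d, with adjusted p of 1 and 0.998 in limma. The second CCK probe set, with a mean of 68.73, gave -0.0015 at 6 h (-0.37 to 0.36), and the interval of each probe set holds the other's value.

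NPY encodes neuropeptide Y. At 6 h open eyes ran from 177.5 over a median of 216 to 335.4 and goggled eyes from 194.8 over 247 to 256.2. At 3 d open eyes ran from 144.2 over 244 to 436.9 and goggled eyes from 141.8 over 299 to 310.4. The spread between chicks was wide, with a coefficient of variation of 10.8% to 38.9%, and the eyes of chick 3 at 3 d, with 144.2 and 141.8, were the lowest of their groups. The goggled eye was higher in 3 of 6 chicks at each time. The fitted NPY difference was 0.01 (SE 0.21, -0.43 to 0.45) at 6 h and 0.01 (SE 0.21, -0.43 to 0.46) at 3 d, so differences of up to about 1.37-fold in either direction lie inside these intervals. With the chick as a block, which rests on the assumed pairing, the SE was smaller, at 0.12 at each time.

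CNP3 encodes a C-type natriuretic peptide of birds. Its single probe set varied widely between eyes of a group, with a coefficient of variation of 48.9% to 119.5%. At 6 h it ran from 19.2 over a median of 29.6 to 73.0 in open eyes and from 4.0 over 9.55 to 79.4 in goggled eyes. At 3 d it ran from 8.8 over 51.7 to 83.1 in open eyes and from 1.5 over 15.5 to 57.0 in goggled eyes. Above the background were 4 and 5 of 6 open eyes and 2 and 2 of 6 goggled eyes, at 6 h and 3 d in this order, and the goggled eye was lower in 4 of 6 chicks at each time. The fitted CNP3 difference was -0.60 (SE 0.41, -1.45 to 0.24) at 6 h, -0.84 (SE 0.41, -1.68 to 0.01) at 3 d and -0.72 (SE 0.29, -1.32 to -0.12) over both times, where the adjusted p was 0.793 in limma. Leaving out an array or a chick moved the value between -0.90 and -0.32 at 6 h and between -1.10 and -0.55 at 3 d. Over all alternatives it lay between -1.24 and -0.25 at 6 h and between -1.55 and -0.39 at 3 d. Differences of eyes within a chick spanned -2.27 to 0.83.

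**Figure D3:**
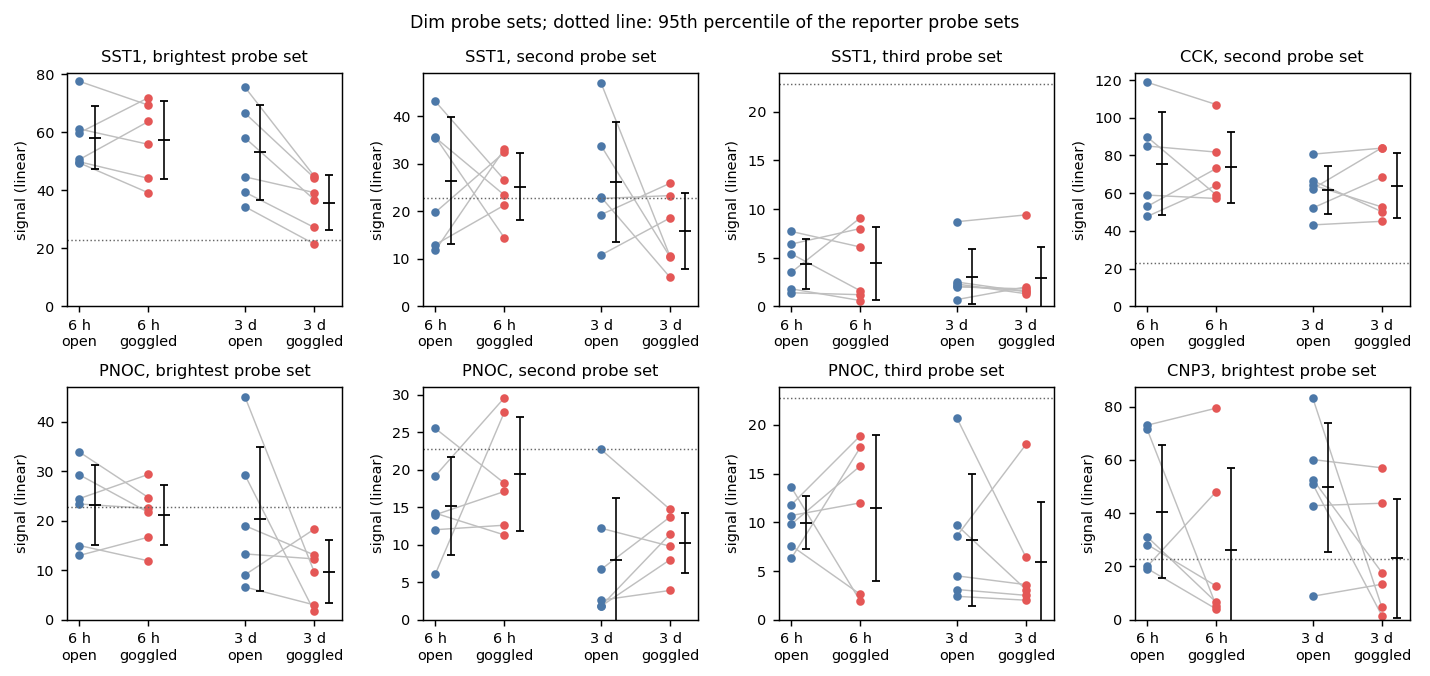
Signal (linear intensity, y axis from 0) of the probe sets of SST1, PNOC and CNP3 and of the second probe set of CCK in each eye, in the layout of the plot of all 8 genes: points for eyes, grey lines for chicks, bars for mean ± SD (n = 6) and a dotted line at 22.8. The dimmest probe set of SST1 (titled as the third) lies below the dotted line on all arrays, and the second probe set of SST1 and all 3 of PNOC lie around or below it.

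Between 6 h and 3 d many probe sets differed: limma called 1970 of 26907 (7.32%) in open eyes, with 703 higher and 1267 lower. It called 3416 (12.7%) in goggled eyes, with 1110 higher and 2306 lower. With each array centred on its median, which shifted the median difference of all probe sets by 0.13 in open and 0.20 in goggled eyes, the calls turned to 2030 higher and 505 lower in open eyes and 4226 higher and 680 lower in goggled eyes. Quantile normalization gave 803 higher and 916 lower in open eyes and 1044 higher and 1123 lower in goggled eyes. Among the 8 genes, 1 was called in open eyes and 1 in the goggled ones, both lower, against 4.71% and 8.57% of all probe sets called lower. The arrays differ between chicks here, so no chick serves as its own control.

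In open eyes PENK fell from 4678 ± 222 at 6 h to 3743 ± 279 at 3 d (SD, n = 6), a difference of -0.32 (SE 0.08, -0.49 to -0.16) with an adjusted p of 0.0152 in limma. All 6 open eyes at 3 d lay below all 6 open eyes at 6 h, and 540 of all probe sets (2.01%) were lower in open eyes without overlap. Relative to the median of all probe sets the PENK difference was -0.27. The call held without any single array and without both eyes of any chick (adjusted p 0.00984 to 0.0386), while it was lost with median centring (-0.20, adjusted p 0.236). It was lost as well when the fit held the 12 open eyes alone (-0.32, adjusted p 0.0518) and without the 5 arrays apart in choroid or muscle markers (-0.32, adjusted p 0.0627). In goggled eyes PENK went from 4760.4 ± 587 to 4082 ± 221, a difference of -0.21 (SE 0.08, -0.38 to -0.05) with an adjusted p of 0.0764 in limma. It passed in limma with quantile normalization (-0.32, adjusted p 0.0179), with trended robust variances (0.0364), with an offset of 64 (0.0443), with array weights (0.0476) and at a threshold of 0.10. Leaving out an array or a chick moved the difference in goggled eyes between -0.24 and -0.16. Over all alternatives it lay between -0.32 and -0.02, with adjusted p of 0.0179 to 0.931 in limma, so its size depended on the setting. A difference in this fall between open and goggled eyes was not called. The order of the group means was 6 h goggled, 6 h open, 3 d goggled and 3 d open, and neighbours in this order overlapped.

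In goggled eyes SST1 fell from 57.3 ± 13.5 at 6 h to 35.6 ± 9.44 at 3 d (SD, n = 6), a difference of -0.51 (SE 0.16, -0.83 to -0.18) with an adjusted p of 0.0344 in limma. The groups overlapped, since the lowest goggled eyes at 6 h, 39.1 and 44.1, lay inside the 3 d range. The SST1 call was lost without any 1 of 6 h goggled replicates 2, 4, 5 or 6 and of 3 d goggled replicates 4 or 5 (adjusted p 0.0564 to 0.0843), without both eyes of some chicks (2, 4, 5 or 6 at 6 h and 4, 5 or 6 at 3 d, adjusted p 0.0507 to 0.0776), and without the 5 arrays apart in tissue markers (-0.52, adjusted p 0.112). It was also lost with quantile normalization (-0.32, adjusted p 0.187) and with median centring (-0.31, adjusted p 0.152), and the second probe set gave -0.39 with an adjusted p of 0.221. In open eyes SST1 went from 58.0 ± 10.9 to 53.0 ± 16.2, a difference of -0.12 (SE 0.16, -0.44 to 0.20).

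PNOC differed by -0.55 (SE 0.21, -0.98 to -0.13) between the times in goggled eyes, with an adjusted p of 0.0793 in limma, and by -0.17 (SE 0.21) in open eyes, with group means of 23.2 or less. NTS differed by -0.02 (SE 0.14, -0.31 to 0.26) in open and 0.12 (SE 0.14, -0.16 to 0.40) in goggled eyes. For the brightest probe sets of TAC1, CCK, NPY and CNP3 the time differences lay between -0.10 and 0.22 in both kinds of eye, and none passed. The second CCK probe set gave -0.20 in open and -0.17 in goggled eyes, neither of which passed.

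**Figure D4:**
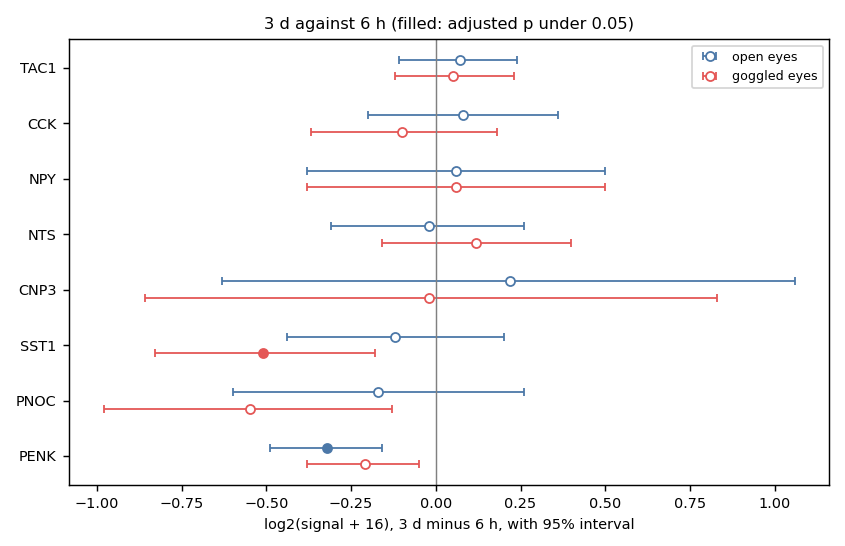
Difference between 3 d and 6 h on the log2(signal + 16) scale (x axis, 3 d minus 6 h) for the brightest probe set of each gene in open (blue) and goggled (red) eyes, with 95% intervals and filled points at an adjusted p under 0.05. PENK in open eyes (-0.32) and SST1 in goggled eyes (-0.51) are filled.

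Between eyes of the same group, NPY and NTS varied together most among the 28 pairs of these genes, with a Pearson correlation of 0.56 over 24 arrays after the group means were taken off. NPY and SST1 had the most negative correlation, with -0.50. PENK correlated with NTS at 0.16 and with SST1 at -0.01, and NTS with SST1 at -0.40. These are descriptions over eyes that share chicks, arrays and tissue makeup. Among 11117 named genes, those most like each peptide gene by the same measure were as follows. For NTS and NPY they were CA13 (0.88), SMIM7 and RSL1D1 (0.87) with NTS, and CYP4A22 and QDPR (0.82) and CLCN4 (0.81) with NPY. For TAC1 they were HSPA12A (0.82), RFTN1 and EZH2 (0.79). They were TTC28 (0.80), NUMB (0.78) and TADA2A (0.76) for SST1 and VMA21 (0.72), CLUL1 (0.70) and LGALS1B (0.69) for CCK. For PNOC they were RTKN2 (0.73), BCHE and METRNL (0.71), for CNP3 PHACTR1 (0.64), RAB5B (0.63) and LIN54 (0.62), and for PENK DAZAP1, TSPAN12 and GTF3C3 (0.63). RTKN2, with a mean of 15.5, and PNOC, with 18.6, both lie inside the background. Each named gene was picked as among the highest of 11117 correlations over 24 arrays. How high such a pick reaches among unrelated genes was not tested.

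Of 26 receptor genes for these peptides, 22 were on the array and 14 were tested. In the goggle comparisons none passed in limma. At an unadjusted p under 0.05 there were 0 and 3 of 14 at 6 h and 3 d, beside 2.36% and 5.38% of all. The median difference of the 14 was -0.02 at 6 h and -0.07 at 3 d, beside -0.01 and -0.03 for all. At 3 d the smallest p was that of NPY1R, a neuropeptide Y receptor, at -0.45 (SE 0.15, adjusted p 0.754 in limma). NTSR1, a neurotensin receptor, followed at -0.33 (SE 0.12, adjusted p 0.796 in limma) and SSTR4, a somatostatin receptor, at -0.53 (SE 0.20, adjusted p 0.83 in limma), each lower in the goggled eye of 5 of 6 chicks. The 3 d goggled means of NPY1R, NTSR1 and SSTR4 were 17.4, 20.1 and 11.6, all inside the background. At 6 h they were SSTR5 at 0.44 (SE 0.23), higher in 6 of 6 chicks (1.5% of all probe sets), NPY2R at -0.25 (SE 0.16), lower in 6 of 6 (1.71% of all), and SSTR1 at -0.09 (SE 0.14), each with an adjusted p of 1 in limma.

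NTSR1 fell between 6 h and 3 d in both kinds of eye. In open eyes it went from 49.7 ± 6.43 to 30 ± 10.9 (-0.54, SE 0.12, adjusted p 0.00933 in limma). In goggled eyes it went from 49.1 ± 7.59 to 20.1 ± 3.96 (-0.85, SE 0.12, adjusted p 2e-04 in limma), where the groups did not overlap (3.63% of all probe sets were lower without overlap). It stayed lower with quantile normalization (-0.42 and -0.65) and with median centring (-0.41 and -0.65), and both calls held in all 36 fits without an array or a chick. In open eyes the call was lost without the 5 arrays apart in tissue markers (-0.52, adjusted p 0.0546). The mean in goggled eyes at 3 d lies below the background limit of 22.8. SSTR4 fell in goggled eyes from 27.9 ± 14.6 to 11.6 ± 4.93 (-0.63, SE 0.20, adjusted p 0.0431 in limma), with a 3 d mean inside the background. Its call held in 22 of 36 such fits and was lost with quantile normalization (-0.47, adjusted p 0.137), with median centring (-0.43, 0.116) and without the 5 arrays apart in tissue markers (-0.63, 0.128). It was lost too with an offset of 64 (-0.27, 0.0612), with no filter (-0.63, 0.0596) and with only the arrays compared (-0.63, 0.0503). It was lost without any 1 of 6 h goggled replicates 2, 3 or 5 and of 3 d goggled replicates 2, 3, 4 or 6 (adjusted p 0.0523 to 0.112). Of the 14 receptors 1 passed lower in open eyes and 2 passed lower in goggled eyes, beside 4.71% and 8.57% of all probe sets, and none passed higher.

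**Figure D5:**
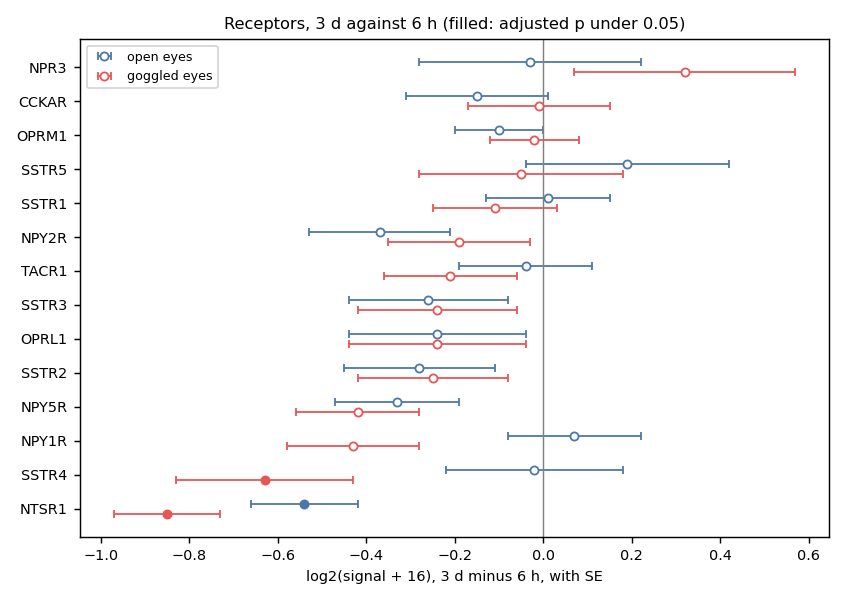
Difference between 3 d and 6 h on the log2(signal + 16) scale (x axis, 3 d minus 6 h) for the 14 tested receptor genes in open (blue) and goggled (red) eyes, with bars of 1 SE and filled points at an adjusted p under 0.05. NTSR1 is filled in open (-0.54) and goggled (-0.85) eyes and SSTR4 in goggled eyes (-0.63), and 13 of 14 goggled points lie left of 0, beside 62.1% of all tested probe sets. The median of the 14 in goggled eyes was -0.22, beside -0.08 for all tested probe sets. Median centring moved the median of all tested probe sets there to 0.12. How many of the 14 stay left of 0 under that scaling was not counted.

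Of 21 genes for peptide processing and secretion, 16 were on the array and were tested. None passed in the goggle or the time comparisons in limma. At an unadjusted p under 0.05 there were 1 and 0 of 16 in the goggle comparisons at 6 h and 3 d, beside 2.36% and 5.38% of all probe sets. In the time comparisons there were 1 and 2 in open and goggled eyes, beside 23% and 28.4% of all. SCG3, a granin that sorts cargo into secretory granules, went from 3013 ± 542 in open to 3630.5 ± 229 in goggled eyes at 6 h (0.29, SE 0.12, adjusted p 1 in limma) and was higher in 5 of 6 chicks at each time. QPCT, which cyclizes the N-terminal glutamine of peptides such as neurotensin, followed at -0.15 (SE 0.11) and CHGB, another granin, at -0.13 (SE 0.12). At 3 d the smallest p belonged to CPD, a carboxypeptidase, at -0.25 (SE 0.15), PCSK6, a precursor convertase, at -0.31 (SE 0.20) and SCG2, a granin, at -0.12 (SE 0.08), each with an adjusted p of 0.922 in limma. Over time in open eyes the smallest p were those of CPD at 0.37 (SE 0.15), the convertase PCSK5 at 0.26 (SE 0.13) and the granin CHGA at 0.10 (SE 0.07). In goggled eyes they were those of CHGA at 0.14 (SE 0.07), PCSK5 at 0.27 (SE 0.13) and QPCT at 0.18 (SE 0.11). Other scalings called some of these higher: CPD in open eyes with quantile normalization (0.47, adjusted p 0.034 in limma) and median centring (0.50, 0.018). In goggled eyes median centring called CHGA (0.34, adjusted p 0.00575 in limma), PCSK5 (0.47, 0.0139) and QPCT (0.38, 0.0316).

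Of 13 peptidases that break down such peptides, 10 were tested. None passed between goggled and open eyes in limma. At an unadjusted p under 0.05 there were 1 of 10 at 6 h and 0 at 3 d, beside 2.36% and 5.38% of all. At 6 h the smallest p were those of LNPEP, a membrane aminopeptidase, at -0.40 (SE 0.15), NLN, the neurolysin that cleaves neurotensin, at 0.19 (SE 0.11) and IDE, the insulin-degrading enzyme, at -0.13 (SE 0.11), each with an adjusted p of 1 in limma. At 3 d they were NLN at 0.23 (SE 0.11), PREP, a prolyl peptidase, at 0.14 (SE 0.07), higher in 6 of 6 chicks (1.76% of all probe sets), and DPP4, a dipeptidyl peptidase, at -0.18 (SE 0.16).

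Between the times LNPEP fell in open eyes from 46.8 ± 14.4 to 25.2 ± 6.02 (-0.59, SE 0.15, adjusted p 0.0207 in limma), without overlap as in 2.01% of all probe sets. That call was lost without 6 h open replicate 5 (-0.49, adjusted p 0.0558), without 3 d open replicate 3 (-0.51, 0.0547), with quantile normalization (-0.48, 0.0557) and without the arrays apart in tissue markers (-0.50, 0.083). It was lost also without both eyes of chick 2 or 5 at 6 h or of chick 3 at 3 d (adjusted p 0.0502 to 0.0626). IDE rose in goggled eyes from 206 ± 30.5 to 292 ± 40.2 (0.47, SE 0.11, adjusted p 0.007 in limma), held in all 36 fits without an array or a chick, and was lost without the 5 arrays apart in tissue markers (0.39, adjusted p 0.0885). Of the 10 peptidases, 1 passed lower in open eyes and 1 passed higher in goggled eyes, beside 4.71% and 4.13% of all probe sets.

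Of 35 genes for other neuropeptides and peptide hormones, 22 were on the array and 12 were tested. None passed between goggled and open eyes in limma. At an unadjusted p under 0.05 there were 0 of 12 at either time, beside 2.36% of all at 6 h and 5.38% at 3 d. At 6 h 11 of the 12 were lower in goggled eyes, with a median of -0.13, and at 3 d 7 were lower, with a median of -0.08, beside 53.6% and 58.5% of all probe sets lower. The smallest p at 6 h were those of IAPP, the amylin precursor, at -0.15 (SE 0.14), CALCA, the calcitonin gene, at -0.14 (SE 0.14) and PRLH, prolactin releasing hormone, at -0.17 (SE 0.18). At 3 d they were CALCA at -0.28 (SE 0.14), HCRT, the orexin precursor, at 0.26 (SE 0.16) and RLN3, relaxin 3, at -0.35 (SE 0.25).

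HCRT fell between the times in open eyes, from 54.3 ± 14.3 to 27.1 ± 6.98 (-0.70, SE 0.16, adjusted p 0.00945 in limma), which held in all 48 alternatives, and it was the only 1 of 12 to pass there, beside 4.71% of all probe sets called lower. In goggled eyes none of the 12 passed in limma, with 2 at an unadjusted p under 0.05, beside 28.4% of all probe sets. The smallest p there were those of TRH, thyrotropin releasing hormone, at -0.38 (SE 0.14, adjusted p 0.0799 in limma), IAPP at -0.33 (SE 0.14, 0.125) and AGRP, the agouti-related peptide, at -0.24 (SE 0.12, 0.188). TRH passed with array weights (-0.44, adjusted p 0.0362 in limma) and without 6 h goggled replicate 4 (-0.45, 0.0466), and IAPP without 6 h goggled replicate 1 (-0.45, 0.0279). All 3 were smaller in size with quantile normalization and with median centring. TRH was -0.23 and -0.19 (adjusted p 0.372 and 0.401 in limma), IAPP -0.16 and -0.13, and AGRP -0.06 and -0.05, in this order. The 3 d goggled means of TRH, IAPP and AGRP were 12.1, 15.3 and 20.2, inside the background, as for 5 of the 12 genes.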

How the data were processed

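The deposited table gives each probe set a linear signal intensity on each of 24 Affymetrix GeneChip Chicken Genome arrays. Per the labels, 3 µg of total RNA per eye was used and data were collected with GCOS 1.4, and the submitters' processing notes list GCOS and RMA with no role given. The 2% trimmed mean was 150.03 on each array, and no columns were identical. After 96 controls were removed, 16 was added, log2 taken, and the 30% with the lowest mean (signal under 13.4) left out. Gene names came from the platform annotation and RefSeq gene IDs.

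limma 3.58.1 in R 4.3.3 fitted 4 group means (20 residual degrees of freedom), two-sided, with Benjamini-Hochberg adjustment at 0.05. Log2 differences on this scale understate those of dim probe sets. The number of arrays limits the precision. The labels call the replicates biological. The block takes equal replicate numbers at a time as the eyes of a chick, which the labels do not state. Between equal numbers the deviations from group means correlated at 0.229 to 0.424 (6 h) and 0.102 to 0.445 (3 d). The means for other numbers, -0.0687 and -0.0551, follow closely from these once group means are taken off. They are therefore no separate evidence, and the pairing stays an inference from the data. The block left 10 residual degrees of freedom.

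The genes and lists were chosen with earlier results of these data known. All 8 genes are named whatever their result. Of each list those past the threshold are named (at most 4 per direction), or the 3 with the smallest p where none passed, and the 3 most correlated genes per member. Alternatives were both kinds of block, offsets, filters, normalizations, variance models, array weights, a threshold of 0.10, fewer arrays and other probe sets. Leaving out the 5 arrays apart was added after seeing the data. The fit was tested on simulated data. Figures used Python 3.11.15 and matplotlib 3.10.9.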

Additional observations from a re-analysis of the deposited data

Results flagged for a closer look

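In 52 groups of 6 values (13 probe sets in 4 groups), 4 held an eye whose gap to its nearest neighbour on the log2 scale exceeded Dixon's 95% critical share of the group's range, and chance gives about 5% of groups. The PENK signal of 3 d goggled replicate 4 was 4495.1, while its group's 5 remaining eyes read 3903.3 to 4103.4. The third probe set of SST1 read 8.7 in 3 d open replicate 3, against 0.7 to 2.5 in the others, and 9.4 in 3 d goggled replicate 3, against 1.3 to 2.0, which is both eyes of 1 chick. The third probe set of PNOC read 18.0 in 3 d goggled replicate 3, against 2.0 to 6.4 in the others. The last 3 values lie below the reporter probe sets' 95th percentile of 22.8, in probe sets too dim to be tested. The array of 3 d goggled replicate 3 also had the highest mean of the choroid and sclera markers (8.26 on the log2 scale), whose part in these values was not tested.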

How the results depend on the processing

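No alternative called any of the 8 genes in a goggle comparison, and the replicate block lowered the adjusted p of NTS over both times from 0.552 to 0.099 and changed no call among the 8. Leaving out an array or a chick left the count of called genes at 1 in open eyes (PENK) and at 0 to 2 in goggled eyes between 3 d and 6 h. The count in open eyes was 0 with median centring, with only the arrays compared and without the 5 arrays apart in tissue markers. In goggled eyes (SST1 in the fit as reported) it was 0 with median centring and without those arrays, 2 with an offset of 64, with trended robust variances and with only the arrays compared, and 3 with array weights and at an adjusted p under 0.10. With quantile normalization the count stayed at 1, but SST1 was lost and PENK gained (adjusted p 0.0179), and without both eyes of chick 6 at 3 d SST1 was lost (0.0507) and PNOC gained (0.0486). PNOC passed there also without 3 d open replicate 5 (adjusted p 0.0466). Directions turned as follows. Without the 5 arrays apart NPY was -0.10 at 6 h and -0.05 over time in open eyes, CCK -0.05 at 3 d, TAC1's change of effect 0.01 and CNP3 0.05 over time in goggled eyes. With median centring TAC1's change of effect was 0.06, NTS 0.10 and SST1 0.0043 over time in open eyes, and CNP3 0.18 and CCK 0.10 over time in goggled eyes. With quantile normalization NPY's change of effect was -0.02 and CNP3 0.11 over time in goggled eyes, and with array weights NTS was 0.09 (open) and CNP3 0.19 (goggled). The second probe set of CCK gave -0.0015 at 6 h, 0.04 for the change of effect and -0.20 over time in open eyes. Leaving out an array or a chick moved through 0 at 6 h PENK (-0.04 to 0.07), NPY (-0.09 to 0.11), SST1 (-0.08 to 0.05) and PNOC (-0.15 to 0.01), at 3 d NPY (-0.12 to 0.17) and CCK (-0.03 to 0.09), and NPY over both times (-0.06 to 0.09). It did so for the change of effect of NPY (-0.14 to 0.16), CNP3 (-0.52 to 0.06) and TAC1 (-0.06 to 0.04), over time in open eyes for NPY (-0.10 to 0.20) and NTS (-0.13 to 0.05), and in goggled eyes for NPY (-0.001 to 0.21) and CNP3 (-0.24 to 0.28). Of all probe sets, those called between 3 d and 6 h numbered 913 in open eyes with only the arrays compared and 931 without the arrays apart, against 1970 as reported, and 1333 in goggled eyes without them, against 3416, where the fits hold fewer arrays, and 2167 in goggled eyes with quantile normalization. In open eyes they were 1310 and 1261 without both eyes of chick 1 or of chick 2 at 6 h. They were 3337 and 5351 at an adjusted p under 0.10, and over both times the goggle calls rose from 2 to 11 with a random block and to at most 7 in the other alternatives. At 3 d they went from 2 to 0 with median centring, 1 with quantile normalization, 3 without the arrays apart, 4 with a random block and 1 to 4 without an array or a chick. A filter at the 50th percentile left no value for PNOC and CNP3, and the untested probe sets gave none. Signal near the background limits PNOC, CNP3, SST1 and some receptors.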
